A study of Mus musculus with 5 samples.

Results

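The 33 genes described here encode structural proteins of basement membranes, proteins that assemble or modify them, and a few of the receptors through which cells hold on to them. They were taken as a list of gene symbols, with no threshold on a measured value. The list was chosen with earlier results of these data known. Counts of its members beside shares of all genes are therefore a description. All 33 were found among the 31053 genes of the deposited count matrices. A basement membrane is the thin sheet of matrix on which epithelium and endothelium sit. Laminins, which are trimers of an α, a β and a γ chain, form one of its networks, type IV collagen forms another, and nidogens and perlecan tie them together. In the alveolus the sheets of the epithelium and of the capillaries are partly fused, so that gas crosses a single membrane, and cells of several types make its parts. Cells bind it through integrins that contain the β1 chain, through dystroglycan and through BCAM.

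Levels came from 5 single-cell libraries of adult mouse lung. At day 7 they were LPS-treated β1 fl/fl, PBS-treated β1 AT2-KO and LPS-treated β1 AT2-KO lungs, and at day 21 they were LPS-treated β1 fl/fl and LPS-treated β1 AT2-KO lungs. All mice carried floxed Itgb1 alleles and had been given doxycycline in their drinking water, and LPS or PBS was given once into the trachea after doxycycline had been stopped. The β1 AT2-KO mice carried in addition SP-C rtTA and Tet-O-Cre, so that Cre was made in cells with an active SP-C promoter, which are alveolar type 2 (AT2) cells. Littermates without rtTA and Cre were the β1 fl/fl controls. Viable cells without CD45 and Ter119 were sorted, and at both day 21 conditions EPCAM-positive cells were added. Each condition was 1 library, for which the paper pooled 3 or more mice. Cells were separated by 3 hashtag antibodies per library. Each hashtag is taken here as 1 mouse, which the paper does not state. A difference between libraries and a difference between conditions therefore cannot be told apart, and p-values measure only the spread between mice of a library.

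Cells were assigned to 3 classes by the genes they expressed. AT2 cells had at least 5% of their UMIs (unique molecular identifiers, each standing for 1 captured RNA molecule) from Sftpc and at least 1 from Epcam. Endothelial cells had at least 2 UMIs of Cdh5 and Pecam1 together, and mesenchymal cells at least 2 of Col1a2, in each case without UMIs of the genes that define the other classes. The gates held 1916 AT2, 21327 endothelial and 1547 mesenchymal cells of 29500 kept. The kept cells of a library held 8360954 to 29128331 UMIs, with medians of 2219 to 5330 per cell. Levels are given as CPM, the UMIs of a gene per 1000000 UMIs of that class in that mouse, in 12 mice for AT2, 15 for endothelial and 11 for mesenchymal cells with at least 10 cells. The 8 AT2 markers summed to 51458 to 60645 CPM in AT2 cells and to 344 to 3227 in endothelial cells. The 8 endothelial markers summed to 13907 to 17518 in endothelial cells and to 61.2 to 149 in AT2 cells. Among cells kept, 442 barcode sequences occurred in more than 1 library.

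Itgb1, the targeted gene, was measured first. In AT2 cells at day 7 its level was 258, 235 and 305 CPM in the 3 β1 fl/fl mice and 214, 150.0 and 193 in the 3 β1 AT2-KO mice. At day 21 it was 356, 319 and 372 against 141, 178 and 146. The groups did not overlap at either time. It fell by 0.65 ± 0.16 (SE) on the log2 scale at day 7 (adjusted p = 0.026) and by 1.31 ± 0.13 at day 21 (adjusted p = 1.9e-07, edgeR's quasi-likelihood test with Benjamini-Hochberg adjustment, used throughout for single genes). In endothelial cells the same contrasts were 0.01 (adjusted p = 0.98) and 0.09 (adjusted p = 0.89). The labels were also set against the sex-linked genes. All 3 LPS-treated β1 fl/fl mice of day 7 had Xist at 291.1 to 316.8 CPM and no UMI of the Y-linked genes, and all 3 LPS-treated β1 AT2-KO mice of day 7 had Y-linked genes at 146.9 to 156.8, so genotype and sex cannot be told apart there. Of the PBS-treated β1 AT2-KO mice, mouse 1 had Xist at 199.3 and mice 2 and 3 had Y-linked genes at 135.9 and 147.3. In LPS-treated β1 fl/fl mouse 1 of day 21 both were found, Xist at 92.55 and Y-linked genes at 83.22, so cells with that hashtag are not shown to be of 1 animal.

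The most abundant chains of type IV collagen, α1 and α2, are made from neighbouring genes that face away from each other. Col4a1 lies on chromosome 8 of GRCm38 at 11198423 to 11312826 on the minus strand, and Col4a2 at 11312805 to 11449287 on the plus strand, so the annotated genes overlap by 22 bases at their starts. The windows of 300 bases around both starts (250 before and 50 after, from RefSeq, build GRCm38.p6) are shown because the 2 genes had the same pattern across classes and after LPS in the values that follow. Capitals mark the 78 bases that both windows cover, which appear on opposite strands. Col4a1 is at chr8:11312777-11313076 on the minus strand and Col4a2 at chr8:11312555-11312854 on the plus strand.
Col4a1: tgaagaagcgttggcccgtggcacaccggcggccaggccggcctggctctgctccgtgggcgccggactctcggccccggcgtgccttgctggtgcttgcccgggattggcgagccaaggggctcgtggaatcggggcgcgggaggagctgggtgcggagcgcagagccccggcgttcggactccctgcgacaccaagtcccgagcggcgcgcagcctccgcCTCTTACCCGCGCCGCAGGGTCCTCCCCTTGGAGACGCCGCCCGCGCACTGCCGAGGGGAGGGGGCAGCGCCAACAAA
Col4a2: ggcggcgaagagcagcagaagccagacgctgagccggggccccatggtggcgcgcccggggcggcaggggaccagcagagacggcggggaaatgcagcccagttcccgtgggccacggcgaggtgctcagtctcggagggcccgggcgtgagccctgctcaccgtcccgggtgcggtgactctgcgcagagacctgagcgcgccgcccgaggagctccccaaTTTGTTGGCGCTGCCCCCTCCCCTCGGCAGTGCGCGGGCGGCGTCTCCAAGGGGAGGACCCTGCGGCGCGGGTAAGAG
GC content was 74.0% in the Col4a1 window and 73.67% in the Col4a2 window, where the median of all 32851 windows was 52.67%. The letters GGGCGG, searched on both strands, occurred 1 time in the Col4a1 window and 3 times in the Col4a2 window, and in 35.66% of all windows. CCAAT occurred 1 time in each, and in 37.41% of all windows. TATAAA occurred in neither, and in 13.62% of all windows. A match is a run of letters and not a shown binding site. Col4a3 and Col4a4 are paired in the same way on chromosome 1, with starts 72 bases apart, and Col4a5 and Col4a6 on chromosome X, with starts 1309 bases apart. Of the 33 genes, 24 had a promoter window.

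The first question was which cell class holds the RNA of each gene. Most of the genes differed between classes. Laminin α2, α4, β1 and γ1, collagen XV and the nidogens were highest in mesenchymal cells, Lama1 and Pxdn in endothelial cells, and laminin α3 and β3 in AT2 cells. The Col4a3 and Col4a4 chains were higher in AT2 than in endothelial cells. Of the 33 genes, 32 passed the filter on low counts over the 3 classes and Frem2 did not. In endothelial cells 15 were higher and 8 lower than in AT2 cells at an adjusted p under 0.05 and at least 2-fold, where 39.2% of all genes tested were called (21.2% higher and 18% lower). In mesenchymal cells 22 were higher and 7 lower than in AT2 cells, where 38.5% of all genes were called (22.3% higher and 16.2% lower). Mesenchymal cells had 19 higher and 5 lower than endothelial cells, where 33.2% of all genes were called (19.1% higher and 14.1% lower). The median log2 difference over the members was 0.57, 2.60 and 1.98 in these comparisons, and 0.13, 0.02 and −0.08 over all genes tested. A gene could pass the filter through the class where it was high, so these counts are a description.

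**Figure D1:**
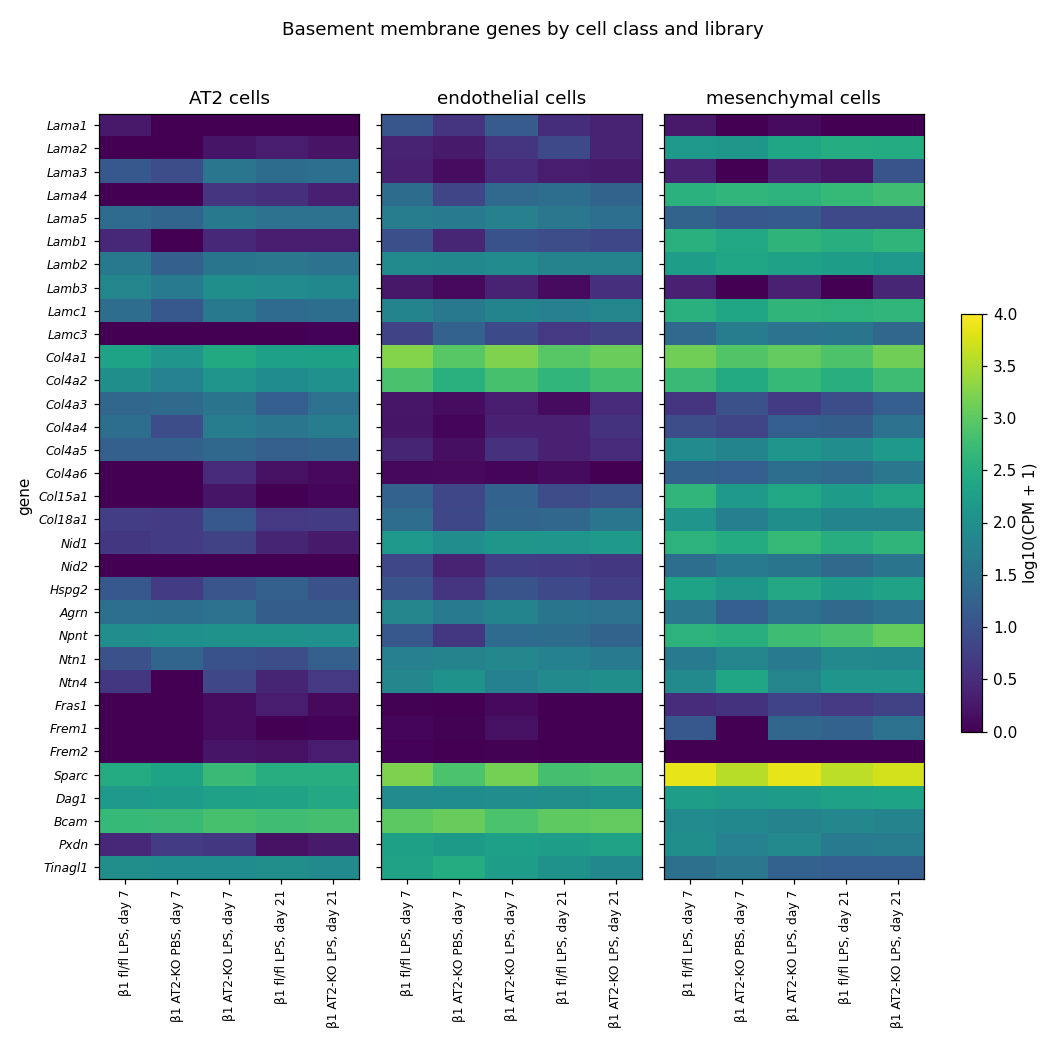
Level of each of the 33 genes (rows) in AT2, endothelial and mesenchymal cells (panels) of each of the 5 libraries (columns), as log10 of CPM plus 1, with all cells of a library summed. Sparc is brightest in the mesenchymal panel, Col4a1 and Col4a2 are bright in the endothelial and mesenchymal panels, and Lama3, Lamb3, Col4a3 and Col4a4 are brighter in the AT2 panel than in the endothelial one.

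Among the laminin α chains, Lama3 encodes the α3 chain of laminin-332, which anchors epithelia. Its level in AT2 cells ran from 2.64 to 71.2 CPM over mice with a median of 28.7, and in endothelial cells from 0 to 2.45 with a median of 0.646. It was lower in endothelial cells in 12 of 12 mice, with a log2 difference of −4.81 ± 0.29 (adjusted p = 2.2e-18). Lamb3, the β3 chain of the same trimer, ran from 33.5 to 129.7 in AT2 cells with a median of 83.2, and from 0 to 6.10 in endothelial cells with a median of 0.323. The difference was −6.75 ± 0.28 (adjusted p = 8.8e-24), and in mesenchymal cells the median of Lamb3 was 0. Lamb3 too was lower in endothelial cells in 12 of 12 mice, and both genes were lower in mesenchymal than in AT2 cells in 11 of 11. The lowest AT2 value of Lama3, in β1 fl/fl mouse 1 of day 21, rests on 1 UMI. In endothelial cells of the LPS-treated β1 AT2-KO library of day 7, the remaining Lama3 and Lamb3 stood at 5.40% and 1.55% of the AT2 level, where the 4 AT2 reference genes, which endothelium should lack, stood at a median of 2.00% and at most 2.23%.

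Laminin α2 and α4 were mesenchymal in these libraries. Lama2, the chain of laminin-211 that dystroglycan binds in muscle, ran from 64.9 to 346 CPM in mesenchymal cells with a median of 209, against at most 1.37 in AT2 cells and at most 11.6 in endothelial cells. By library, its endothelial level was 0.502% to 2.19% of the mesenchymal one, where 4 mesenchymal reference genes (Col3a1, Col1a1, Dcn and Mgp) reached 1.77%. That maximum was Mgp in the LPS-treated β1 AT2-KO library of day 7, where Col3a1, Col1a1 and Dcn were at 0.627%, 0.366% and 0.777%. Whether endothelial cells make Mgp themselves was not tested. Lama4, the α4 chain of laminin-411, had a range of 262 to 850.3 in mesenchymal cells with a median of 327. Its median was 14.9 in endothelial cells and 1.03 in AT2 cells. The mesenchymal level was above the endothelial one in 11 of 11 mice for both genes, by log2 differences of 6.15 ± 0.17 for Lama2 and 4.11 ± 0.16 for Lama4 (adjusted p = 5.4e-29 and 2e-24). Lama1, the α1 chain of embryonic basement membranes, was found mainly in endothelial cells, at 0 to 19.6 with a median of 3.71. A single UMI of it was counted over the AT2 cells of all mice, and its mesenchymal level was lower by 3.81 ± 0.56 on the log2 scale than the endothelial one (adjusted p = 2.2e-07). Lama5, the α5 chain of laminin-511 and laminin-521, was present in all classes. It did not pass the threshold between endothelial and AT2 cells (−0.23 ± 0.17, adjusted p = 0.25), where its CPM was higher in endothelial cells in 10 of 12 mice, so that its sign differed between CPM and the TMM scaling of the fit. It was lower in mesenchymal cells than in either.

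The β and γ chains divided in a like way. Lamb1 had a median of 293 CPM in mesenchymal cells (range 154 to 563), 5.99 in endothelial cells and 1.15 in AT2 cells. Lamc1, the γ1 chain shared by most laminins, had a median of 336 in mesenchymal cells (208 to 584), 56.3 in endothelial cells and 23.2 in AT2 cells. Both were higher in mesenchymal than in endothelial cells in 11 of 11 mice, by 5.51 ± 0.16 and 2.75 ± 0.12 on the log2 scale (adjusted p = 4.6e-29 and 2.4e-22). Lamb2 differed less, with mesenchymal cells above endothelial cells by 1.39 ± 0.14 (adjusted p = 3.4e-11), and the endothelial excess over AT2 cells of 0.43 ± 0.16 was under the 2-fold limit. Lamc3, a rarer γ chain, had 1 AT2 mouse above 0 and medians of 5.99 in endothelial and 22.0 in mesenchymal cells.

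Among the genes of type IV collagen, Col4a1 with Col4a2 and Col4a3 with Col4a4 each had a like pattern across classes. Col4a1 ran from 154 to 335 CPM in AT2 cells with a median of 195, from 647 to 2063 in endothelial cells with a median of 1266, and from 279 to 1659.6 in mesenchymal cells with a median of 928. Col4a2 had medians of 95.5, 545 and 408 in the same order. Endothelial cells were above AT2 cells in 12 of 12 mice for Col4a1, by 2.11 ± 0.16 on the log2 scale, and Col4a2 was higher by 1.98 ± 0.13 (adjusted p = 2.4e-15 and 6.7e-17). Mesenchymal cells were below endothelial cells by less than 2-fold, by −0.45 ± 0.16 for Col4a1 and −0.43 ± 0.13 for Col4a2. The α3 and α4 chains belong with α5 to a network found in alveoli and kidney glomeruli. Col4a3 ran from 9.58 to 44.5 in AT2 cells with a median of 22.7 and from 0 to 1.29 in endothelial cells. Col4a4 ran from 19.7 to 54.1 in AT2 cells, and both were lower in endothelial cells, by −5.47 ± 0.42 and −5.43 ± 0.35 (adjusted p = 6.2e-15 and 3.3e-17). In mesenchymal cells Col4a3 ran from 0 to 69.2 with a median of 9.88 and Col4a4 from 0 to 103.7 with a median of 14.8, on at most 9 UMIs in a mouse. The fitted mesenchymal levels were below those of AT2 cells by 2.27 ± 0.47 and 1.82 ± 0.37 on the log2 scale, but the CPM was higher in mesenchymal cells in 3 of 11 mice for Col4a3 and in 2 of 11 for Col4a4. Col4a5, their partner chain, was above the AT2 level in mesenchymal cells by 2.01 ± 0.22 and below it in endothelial cells by 3.38 ± 0.27 on the log2 scale. Col4a6 was found chiefly in mesenchymal cells, where its median was 15.7 and where 2 of 11 mice had none.

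Collagens XV and XVIII are basement membrane collagens that carry heparan or chondroitin sulfate chains. Col15a1 had a median of 276 CPM in mesenchymal cells (82.2 to 534) and 11.6 in endothelial cells, and 1 of 12 mice had any in AT2 cells. Col18a1, whose C-terminal fragment is endostatin, had medians of 97, 16.8 and 4.86 in mesenchymal, endothelial and AT2 cells. Nidogens bridge laminin and type IV collagen. Nid1 had a median of 415 in mesenchymal cells (194 to 789), 116 in endothelial cells (67.6 to 151) and 1.79 in AT2 cells. Nid2 had no UMI in AT2 cells of any of the 12 mice. The 11260297 UMIs of those cells would have allowed a level of up to 0.266 (3 UMIs, counting error only), so that its level was at least 13.4-fold higher in endothelial and at least 116-fold higher in mesenchymal cells. Perlecan (Hspg2) was higher in mesenchymal than in endothelial cells in 11 of 11 mice, at 141 to 256 with a median of 209, and its median was 6.46 in endothelial cells and 11.7 in AT2 cells. The endothelial level was below the AT2 level in 10 of 12 mice by 1.02 ± 0.22 on the log2 scale, close to the 2-fold limit. Agrin (Agrn), the other large heparan sulfate proteoglycan of the set, did not reach the 2-fold limit of the fit in any of the 3 comparisons. Its medians were 16.7 in AT2, 45.7 in endothelial and 24.7 in mesenchymal cells. Its CPM, which lacks the TMM scaling of the fit, was higher in endothelial than in AT2 cells in 12 of 12 mice.

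Nephronectin (Npnt) is a ligand of integrin α8β1. Its level was 58.0 to 154 CPM in AT2 cells with a median of 107, 0.988 to 39.2 in endothelial cells with a median of 16.1, and 182 to 1322 in mesenchymal cells with a median of 321. Endothelial cells were below AT2 cells in 12 of 12 mice (−3.00 ± 0.20, adjusted p = 5.3e-17), and mesenchymal cells were above endothelial cells in 11 of 11 (4.27 ± 0.19, adjusted p = 4.2e-22). The netrins Ntn1 and Ntn4 are secreted proteins related to laminins, and Ntn4 is known to bind into laminin networks. Ntn4 had a median of 68.8 in endothelial cells (46.9 to 129.5), 80.6 in mesenchymal cells and 3.25 in AT2 cells, and was higher in endothelial than in AT2 cells by 3.81 ± 0.21 on the log2 scale (adjusted p = 2.2e-19). Ntn1 had medians of 59.7, 72.8 and 12.1 in the same order. Fras1, Frem1 and Frem2 belong to a complex that attaches epithelium to underlying connective tissue, chiefly in the embryo. Fras1 and Frem1 were found in mesenchymal cells at medians of 3.23 and 11.2, and Frem2 in 5 of the 12 AT2 mice at up to 2.97, in 1 endothelial mouse and in no mesenchymal one.

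Sparc binds collagen IV and is made by many stromal cells. It ran from 3549.8 to 8723 CPM in mesenchymal cells with a median of 5542, from 579 to 1974 in endothelial cells with a median of 929, and from 249.9 to 619.9 in AT2 cells with a median of 317. The mesenchymal range did not overlap the others, and Sparc was higher in mesenchymal than in endothelial cells by 2.42 ± 0.14 on the log2 scale (adjusted p = 1.8e-18). Its endothelial level was higher than its AT2 level by 1.03 ± 0.14, close to the 2-fold limit. Peroxidasin (Pxdn) cross-links type IV collagen. It was highest in endothelial cells, with a range of 121 to 209 and a median of 176. AT2 cells had at most 5.95 (endothelial above AT2 by 6.03 ± 0.27, adjusted p = 2.5e-22). Mesenchymal cells had a median of 59.8 and at most 108.6, and those with pericyte markers were at 117. Tinagl1, a secreted matricellular protein related to a nephritis antigen, had medians of 194 in endothelial, 81.3 in AT2 and 28.7 in mesenchymal cells.

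The 2 receptors in the set differed in their distribution. Dystroglycan (Dag1), which binds laminin G domains through its sugar chains, had a median of 210.5 CPM in AT2 cells (119 to 262), 89.9 in endothelial cells (73.9 to 113) and 153 in mesenchymal cells. It was lower in endothelial than in AT2 cells in 12 of 12 mice (−1.71 ± 0.10, adjusted p = 2.9e-18). Bcam, the receptor for laminin α5, ran from 352 to 854 in AT2 cells with a median of 648 and from 693 to 1166 in endothelial cells with a median of 919.5. It was 30.7 to 215 in mesenchymal cells, below both other classes in 11 of 11 mice, by 3.23 ± 0.20 and 3.13 ± 0.19 on the log2 scale (adjusted p = 8.4e-18 and 1.1e-17). The difference between endothelial and AT2 cells did not pass (−0.10 ± 0.15, adjusted p = 0.56). Its CPM was higher in endothelial cells in 10 of 12 mice, so that here too the sign differed between CPM and the fit.

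Within the classes, cells were divided further by marker genes, and the levels below are sums over all libraries with exact 95% Poisson intervals, which cover counting error only. They carry no test. Among endothelial cells, 8978 had Car4, a marker of the large capillary cells called aerocytes, and 6008 had Gpihbp1 without Car4, a marker of general capillary cells. Bcam was at 1503 (1489 to 1517) CPM in Car4-positive and 508 (497 to 519.8) in Gpihbp1-positive cells. Ntn4 was at 128 and 38.2, and Lamc1 at 71.3 and 34.1. The order was the opposite for Lama1 at 3.26 and 12.7, Lama5 at 32.2 and 60.2, Ntn1 at 34.8 and 76.5, and Tinagl1 at 162 and 297. Col4a1, at 1369 and 1395, was nearly the same in both. The 201 cells with Prox1, which marks lymphatic endothelium, had Lama4 at 449, Npnt at 189, Nid2 at 116, Col18a1 at 206 and Bcam at 127.

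Among mesenchymal cells the level of Npnt differed with the marker used. It was at 1912 (1841 to 1984) CPM in 368 cells with Tcf21, a marker of alveolar fibroblasts, at 178 in 143 cells with pericyte markers, at 70.0 in 143 cells with Pi16, a marker of adventitial fibroblasts, and at 58.6 in 66 cells with Myh11, a smooth muscle gene. The pericyte-marker cells had Col4a1 at 2369 (2258 to 2484) and Col4a2 at 1095, where the other groups had Col4a1 at 730.5 to 967. Nid1 at 706 and Col15a1 at 467 were highest in the Pi16 cells, Frem1 at 48.5 in the Tcf21 cells, and Ntn4 at 283 in the Myh11 cells, which had Lamb1 at 16.3 where the Tcf21 cells had it at 530.1. Only 37 cells carried Ager and Hopx, which mark AT1 cells, without reaching the Sftpc limit. They came from 3 of the 5 libraries, with 13, 20 and 4 cells. Their Lama3 was at 139.6 (100.2 to 189), Lamb3 at 119, Col4a3 at 129, Col4a4 at 143, Sparc at 1631 and Bcam at 1124. These sums differed between the 2 libraries that gave at least 10 of the cells, with Lama3 at 45.1 and 209, Lamb3 at 60.2 and 187 and Sparc at 873 and 2491, so each sum would move by leaving out either library.

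**Figure D2:**
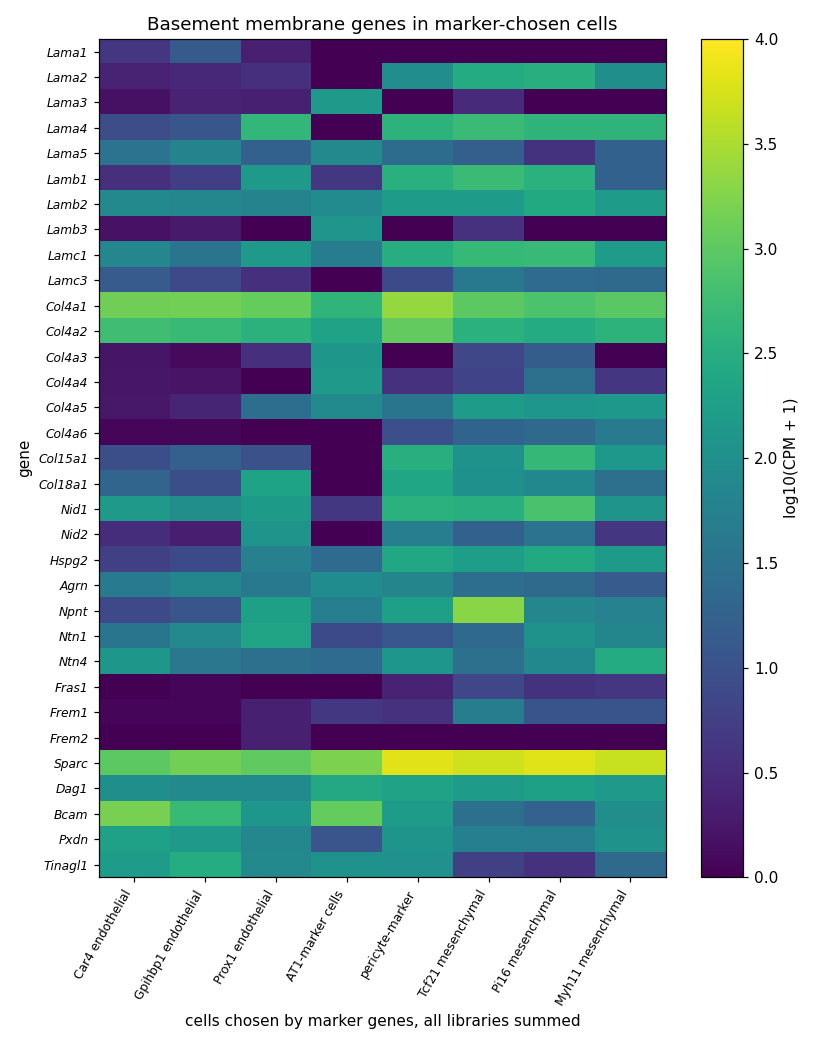
Level of each of the 33 genes (rows) in cells chosen by marker genes (columns), summed over all libraries, as log10 of CPM plus 1. Npnt is brightest in the Tcf21 mesenchymal column at 1912, Col4a1 in the pericyte-marker column at 2369, and Lama3, Lamb3, Col4a3 and Col4a4 stand out in the column of the 37 cells with AT1 markers.

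The next question was whether the loss of β1 integrin from AT2 cells went with a change in the genes of its ligands and neighbouring receptors in the same cells. At day 7 after LPS, Sparc and Bcam were higher in β1 AT2-KO AT2 cells. All β1 fl/fl mice of day 7 had Xist and all LPS-treated β1 AT2-KO mice had Y-linked genes. Genotype and sex therefore cannot be told apart in this or any other genotype comparison of day 7. Sparc was at 249.9, 253 and 399.9 CPM in the β1 fl/fl mice and at 619.9, 479.6 and 570.3 in the β1 AT2-KO mice. Bcam was at 401, 352 and 599.8 against 854, 649 and 704. The groups did not overlap for either gene. Sparc rose by 0.80 ± 0.16 on the log2 scale (adjusted p = 0.0034) and Bcam by 0.60 ± 0.15 (adjusted p = 0.030). Of the 33 genes 16 passed the filter on low counts in AT2 cells, and these 2 were called, both higher, where 2.06% of all genes tested were called (0.898% higher and 1.17% lower).

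Lama3 had the largest difference among the genes that did not pass. It was at 9.84, 12.3 and 19.0 CPM in the β1 fl/fl mice and 71.2, 33.3 and 30.9 in the β1 AT2-KO mice, without overlap, with a log2 difference of 1.59 ± 0.53 (adjusted p = 0.13). It passed with no filter on low counts (adjusted p = 0.015) and with a looser gate (adjusted p = 0.033). Lamc1 was at 21.6, 18.5 and 14.3 against 35.6, 36.9 and 50.3 (0.98 ± 0.36, adjusted p = 0.18). Dag1 was at 139.7, 136 and 119 against 225, 162 and 218 (0.47 ± 0.18, adjusted p = 0.22), and Col4a1 at 207, 154 and 233 against 335, 258 and 246 (0.35 ± 0.16, adjusted p = 0.34). For these genes too every β1 AT2-KO mouse was above every β1 fl/fl mouse. Of the 16 genes tested 14 had a positive difference, with a median of 0.45, where 49.7% of all genes tested were positive and their median was −0.0033. Tinagl1 and Lamb2 were the exceptions, at −0.08 ± 0.21 and −0.57 ± 0.34. An unadjusted p under 0.05 was found for 7 of the 16, and for 13.4% of all genes.

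The AT2 cells behind these values were few, at 54, 20 and 17 in the β1 fl/fl mice and 41, 101 and 58 in the β1 AT2-KO mice. Without β1 fl/fl mouse 1, which gave 54 of those cells, neither gene was called (Sparc 0.66, adjusted p = 0.097, and Bcam 0.52, adjusted p = 0.21), and Bcam was lost without β1 fl/fl mouse 2 (adjusted p = 0.13) or β1 AT2-KO mouse 1 (adjusted p = 0.12) as well. With a stricter hashtag threshold they were at 0.66 (adjusted p = 0.087) and 0.50 (adjusted p = 0.20). Over all alternatives the difference of Sparc ran from 0.66 to 1.01 (adjusted p from 1.6e-05 to 0.097) and it was called in 10 of 12. That of Bcam ran from 0.50 to 0.81 (adjusted p from 0.0023 to 0.21) and it was called in 8 of 12. Sparc in these β1 AT2-KO AT2 cells was at 6.87% of its mesenchymal level, where the 4 mesenchymal reference genes stood at a median of 0.31% and at most 0.48%. The 7 AT1 markers summed to 2159 CPM in the β1 fl/fl and 3208 in the β1 AT2-KO AT2 cells, and the club cell markers to 2331 and 832. Their part in the result was not tested.

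**Figure D3:**
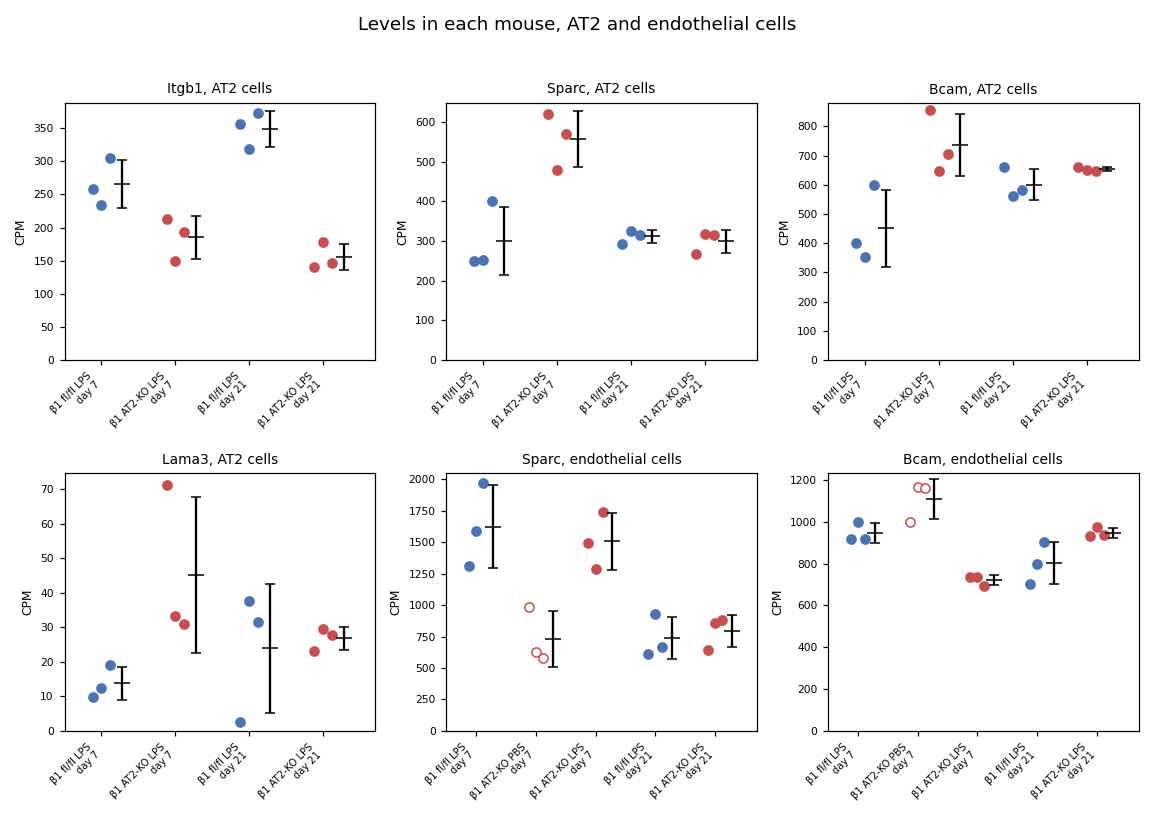
Level in each mouse (points, in CPM) of Itgb1, Sparc, Bcam and Lama3 in AT2 cells and of Sparc and Bcam in endothelial cells, by condition, with mean and SD over 3 mice. In AT2 cells at day 7 the β1 AT2-KO points of Sparc, at 479.6 to 619.9, lie above the β1 fl/fl points, at 249.9 to 399.9, and at day 21 the groups overlap.

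At day 21 the genotypes were close to each other for both genes in AT2 cells. Sparc was at 293, 325 and 316 CPM in β1 fl/fl and 266, 318 and 314 in β1 AT2-KO mice, and Bcam at 659, 559.7 and 583 against 662, 651 and 647. The groups overlapped for both. The log2 differences were −0.18 ± 0.14 and −0.01 ± 0.14. None of the 16 genes was called by edgeR's quasi-likelihood test (of all genes 4.05% were called, 1.39% higher and 2.66% lower), none by DESeq2, and 2 had an unadjusted p under 0.05 (17.2% of all genes). These were Col4a3 (0.90 ± 0.35, adjusted p = 0.16) and Tinagl1 (−0.45 ± 0.16, adjusted p = 0.13). Col4a3 was at 21.1, 11.6 and 9.58 against 23.9, 29.1 and 27.4, without overlap. The difference between the genotype effects of the 2 times was −0.99 ± 0.21 for Sparc (adjusted p = 0.022), the 1 gene of 16 called, where 0.63% of all genes were (0.362% higher and 0.268% lower), and −0.61 ± 0.21 for Bcam (adjusted p = 0.22). The call of Sparc was kept in 11 of 18 alternatives, with differences from −1.18 to −0.72 and adjusted p from 0.0015 to 0.23. Day 21 libraries had been enriched for EPCAM-positive cells and day 7 libraries had not, and the sexes of the pooled mice differed too. Of the day 21 mice, β1 fl/fl mice 2 and 3 had Xist at 246.8 and 212.1 CPM and β1 AT2-KO mouse 1 at 145, and β1 AT2-KO mice 2 and 3 had Y-linked genes at 77.19 and 106.4. Enrichment, sex and time cannot be told apart.

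In endothelial cells, in which Itgb1 was not called between genotypes, the genotype contrast at day 7 gave the opposite sign for Bcam. It was at 915, 999.9 and 919.5 CPM in β1 fl/fl and at 737, 735 and 693 in β1 AT2-KO mice, without overlap, and fell by 0.41 ± 0.09 on the log2 scale (adjusted p = 0.019). It was the 1 gene called of the 25 tested, where 2.46% of all genes were called (1.68% higher and 0.774% lower), and 4 genes had an unadjusted p under 0.05 (14.6% of all genes). The share of endothelial cells with Car4, in which Bcam is high, was 45.8% in the β1 fl/fl and 30.6% in the β1 AT2-KO library. Among Car4-positive cells alone the difference was −0.30 (adjusted p = 0.28) and among Gpihbp1-positive cells −0.12 (adjusted p = 0.83). The call was also lost without β1 fl/fl mouse 2, β1 AT2-KO mouse 2 or β1 AT2-KO mouse 3, and it was kept in 10 of 15 alternatives, with adjusted p from 9.8e-05 to 0.83. Npnt was at 13.8, 9.10 and 11.4 against 16.1, 17.8 and 39.2 (1.06 ± 0.30, adjusted p = 0.073). Sparc did not pass (−0.13 ± 0.19), nor did Col4a1 (−0.11 ± 0.19).

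The genotype effects of AT2 and endothelial cells were compared in 1 model over both classes. At day 7 the AT2 effect exceeded the endothelial effect by 0.98 ± 0.23 on the log2 scale for Sparc (adjusted p = 0.0035) and by 1.08 ± 0.21 for Bcam (adjusted p = 0.00016). These were 2 of 28 genes tested, where 1.18% of all genes were called (0.469% higher and 0.712% lower), and 9 had an unadjusted p under 0.05 (9.09% of all genes). The Sparc call was kept in 10 of 12 alternatives and the Bcam call in 11 of 12, with adjusted p of at most 0.086 for both. The fit took the whole endothelial gate, in which the share of Car4-positive cells differed between the libraries. It was not repeated within Car4-positive or Gpihbp1-positive cells. At day 21 none of 22 genes was called by edgeR or by DESeq2 (of all genes edgeR called 2.02%, 0.921% higher and 1.1% lower), and 4 had an unadjusted p under 0.05 (10.3% of all genes). The genotype difference of Bcam in endothelial cells was larger at day 21 than at day 7 by 0.64 ± 0.13 (adjusted p = 0.028). Of all genes 0.995% were called (0.357% higher and 0.638% lower), and the call of Bcam was kept in 12 of 21 alternatives. It was 0.31 among Car4-positive and 0.32 among Gpihbp1-positive cells and not called in either. At day 21 itself, none of 25 genes was called in endothelial cells by edgeR or DESeq2 (of all genes edgeR called 0.527%, 0.255% higher and 0.272% lower), and 7 had an unadjusted p under 0.05 (11.5% of all genes).

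In mesenchymal cells no member was called between genotypes. At day 7 edgeR and DESeq2 called none of 22 genes (of all genes edgeR called 0.115%, 0.0768% higher and 0.0384% lower). Lama2 and Col4a5 had an unadjusted p under 0.05 (5.51% of all genes did), at 0.82 ± 0.32 and 0.96 ± 0.28. At day 21 edgeR called no member, as it called 0% of all genes, and DESeq2 called Col4a1 (adjusted p = 0.00018). Col4a1 was at 463, 279 and 584 CPM in β1 fl/fl mice and at 1608 and 1659.6 in the 2 β1 AT2-KO mice that had enough cells, with a log2 difference of 1.78 ± 0.31 (adjusted p = 0.096 by edgeR). Col4a2 was at 247, 169.6 and 289 against 692 and 512 (1.23 ± 0.34, adjusted p = 0.27), and Npnt at 321, 424 and 195 against 432 and 1322 (1.48 ± 0.41, adjusted p = 0.27). The groups did not overlap for any of these genes, and how many of all genes did the same was not counted. In all, 9 members had an unadjusted p under 0.05, each with a positive difference (10.9% of all genes had such a p in either direction), and 18 of 22 differences were positive where 47.9% of all genes were. The β1 AT2-KO values rest on 15 and 24 cells, and 19.0% of the β1 fl/fl and 28.5% of the β1 AT2-KO mesenchymal cells carried a single hashtag. Over all mesenchymal cells of the libraries, with or without a hashtag, the differences were smaller, with Col4a1 at 759 in β1 fl/fl and 1368 in β1 AT2-KO, Col4a2 at 333 and 575, and Npnt at 718 and 1129. The 5 smooth muscle and myofibroblast markers summed to 1707 and 699 in these cells, the 8 AT2 markers to 317 and 1578 and the 3 club cell markers to 1369 and 413. Their part in the result was not tested. For the change between the times edgeR called no member (0.0192% of all genes), DESeq2 called 1, and 4 had an unadjusted p under 0.05, with Col4a1 at 2.26 ± 0.41 (adjusted p = 0.11).

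The clearest change over the set was in endothelial cells after LPS. It can be seen in β1 AT2-KO mice of day 7, since PBS-treated β1 fl/fl lungs were not analysed here. Of 25 genes tested, 14 were higher and 4 lower in LPS-treated than in PBS-treated mice, where 26.2% of all genes tested were called (14.3% higher and 11.9% lower). The median log2 difference of the members was 0.85, and 0.02 over all genes. The genes tested include mesenchymal ones. The rise of Lama2 cannot be told apart from free RNA taken up by droplets, as given below. Lama4 was called over all endothelial cells but in neither capillary subset. Type IV collagen α1 and α2, several laminin chains, Sparc, perlecan and nephronectin were higher, and Ntn4, Lamc3, Tinagl1 and the laminin receptor Bcam were lower.

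Col4a1 was at 1184, 736 and 736 CPM in PBS-treated mice and at 1882, 1307 and 1932 in LPS-treated mice. Col4a2 was at 467, 288 and 271 against 742, 545 and 769.6, and Sparc at 986, 628 and 579 against 1498, 1285 and 1741. The groups did not overlap, and the PBS-treated mouse that was highest for all 3 genes was mouse 1, the one with Xist. Col4a1 rose by 0.85 ± 0.19 on the log2 scale (adjusted p = 0.0030), Col4a2 by 0.90 ± 0.19 (adjusted p = 0.0016) and Sparc by 0.95 ± 0.19 (adjusted p = 0.0012). Without that mouse they were at 1.12, 1.20 and 1.23 and all called. Endothelial cells of LPS-treated β1 fl/fl mice had Col4a1 at 1471, 1937 and 2063 and Col4a2 at 588, 747 and 769.9, in the range of the LPS-treated β1 AT2-KO mice or above it. In the LPS-treated β1 AT2-KO library the endothelial levels of Col4a1 and Col4a2 were 154% and 143% of the mesenchymal ones, and the 3 genes were called in both Car4-positive cells (0.98, 1.05 and 1.23) and Gpihbp1-positive cells (0.82, 0.90 and 0.76).

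Ntn4 changed the other way. It was at 85.0, 118 and 129.5 CPM with PBS and at 61.6, 53.0 and 48.2 with LPS, without overlap, and fell by 1.12 ± 0.14 on the log2 scale (adjusted p = 1.7e-05). Tinagl1 was at 262, 402 and 279 against 178, 159 and 194 and fell by 0.93 ± 0.18 (adjusted p = 0.00073). Both were called lower in Car4-positive cells (−1.0 and −0.81) and in Gpihbp1-positive cells (−0.58 and −1.03). Bcam was at 998, 1166 and 1164 against 737, 735 and 693, and Lamc3 at 11.6, 18.8 and 18.4 against 7.77, 7.10 and 5.99. They fell by 0.71 ± 0.09 (adjusted p = 1.7e-05) and by 1.31 ± 0.25 (adjusted p = 0.00062). The share of Car4-positive cells was 44.1% with PBS and 30.6% with LPS, and that of Gpihbp1-positive cells 29.0% and 35%. Bcam and Lamc3 were called among Car4-positive cells (−0.58 and −1.68) but not among Gpihbp1-positive cells, where Bcam was at −0.27 (adjusted p = 0.14) and Lamc3 at −0.80 (adjusted p = 0.38). A difference between these 2 kinds of cell was not tested. The LPS-treated β1 AT2-KO mice, in which Bcam was low, are the same mice as in the genotype comparison of day 7.

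Lama1 was at 1.94, 3.36 and 3.71 CPM with PBS and at 15, 7.35 and 19.6 with LPS, and rose by 2.13 ± 0.42 (adjusted p = 0.00090). Col15a1 was at 4.04, 6.92 and 4.69 against 19.6, 14.96 and 19.3 and rose by 1.69 ± 0.31 (adjusted p = 0.00044). Npnt was at 3.88, 0.988 and 3.71 against 16.1, 17.8 and 39.2 and rose by 2.95 ± 0.36 (adjusted p = 1.1e-05). The groups did not overlap for these genes. Lamc1, Nid1, Hspg2 and Col18a1 rose by 0.61, 0.49, 1.81 and 1.29. Lama4 rose by 1.75 ± 0.30 (adjusted p = 0.00027), and by 1.20 without the Prox1-positive cells, which were 0.163% of endothelial cells with PBS and 1.30% with LPS. It was not called among Car4-positive cells (0.79, adjusted p = 0.24) or Gpihbp1-positive cells (1.19, adjusted p = 0.060).

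Genes that are mesenchymal need to be read beside free RNA, which droplets take up from the suspension. The reference genes Col3a1, Col1a1, Dcn and Mgp rose 4.59 to 10.2-fold in endothelial cells between the PBS and the LPS library, and stood at a median of 0.193% and 0.702% of their mesenchymal level (at most 0.499% and 1.77%). The maximum was Mgp in both libraries, and after LPS Col3a1, Col1a1 and Dcn were at 0.627%, 0.366% and 0.777%. Lama2, at 1.36% of its mesenchymal level after LPS, was within that range only through Mgp and above Col3a1, Col1a1 and Dcn. For its rise of 2.51 ± 0.57, free RNA and a change within endothelial cells cannot be told apart. Lamb1 at 2.28% and Col4a5 at 2.17% were just above the whole range, with rises of 2.43 and 2.82. Hspg2 at 3.87%, Npnt at 4.21%, Lama4 at 5.67% and Col15a1 at 7.27% were higher above it, and Sparc was at 20.4%. The part of free RNA from mesenchymal or AT2 cells in these rises was not tested. Between the same libraries the AT2 reference genes Sftpa1, Sftpb, Sftpd and Lamp3 rose 6.24 to 14.6-fold in endothelial cells.

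**Figure D4:**
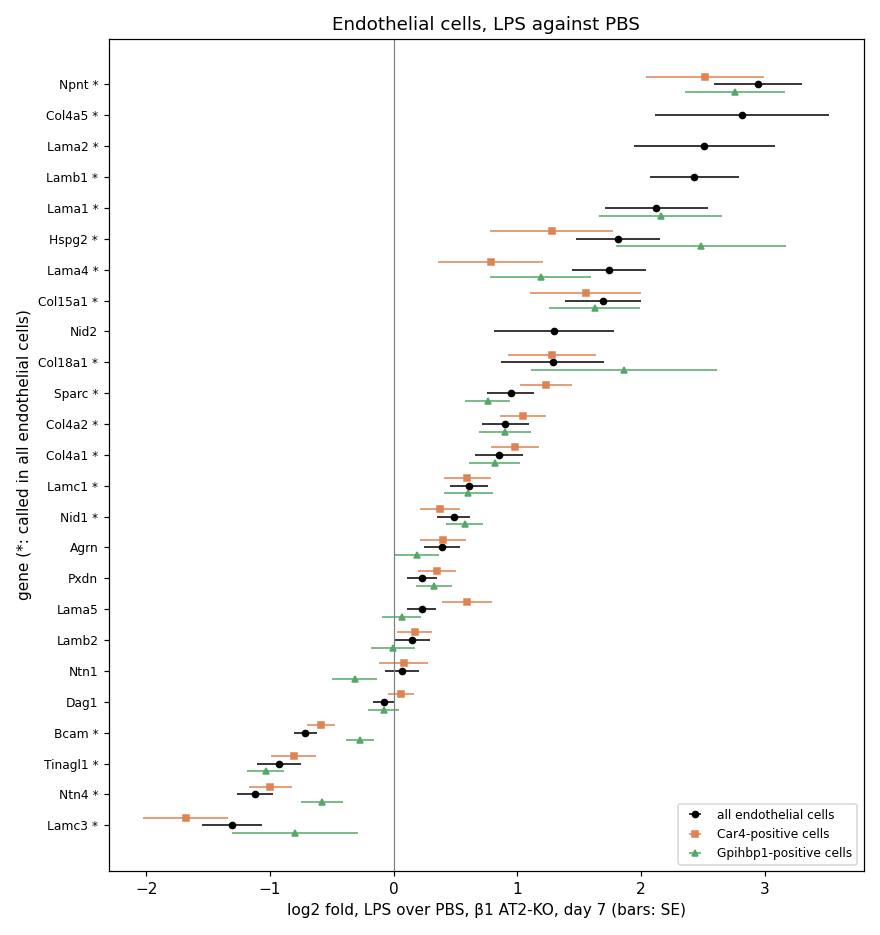
Log2 fold of LPS over PBS in endothelial cells of β1 AT2-KO mice at day 7 for the 25 genes tested (bars are SE), in all endothelial cells, in Car4-positive and in Gpihbp1-positive cells, with an asterisk for genes called in all endothelial cells. Npnt is at the top at 2.95 and Lamc3 at the bottom at −1.31, and Col4a1, Col4a2 and Sparc have like values in all 3 sets of cells.

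**Figure D5:**
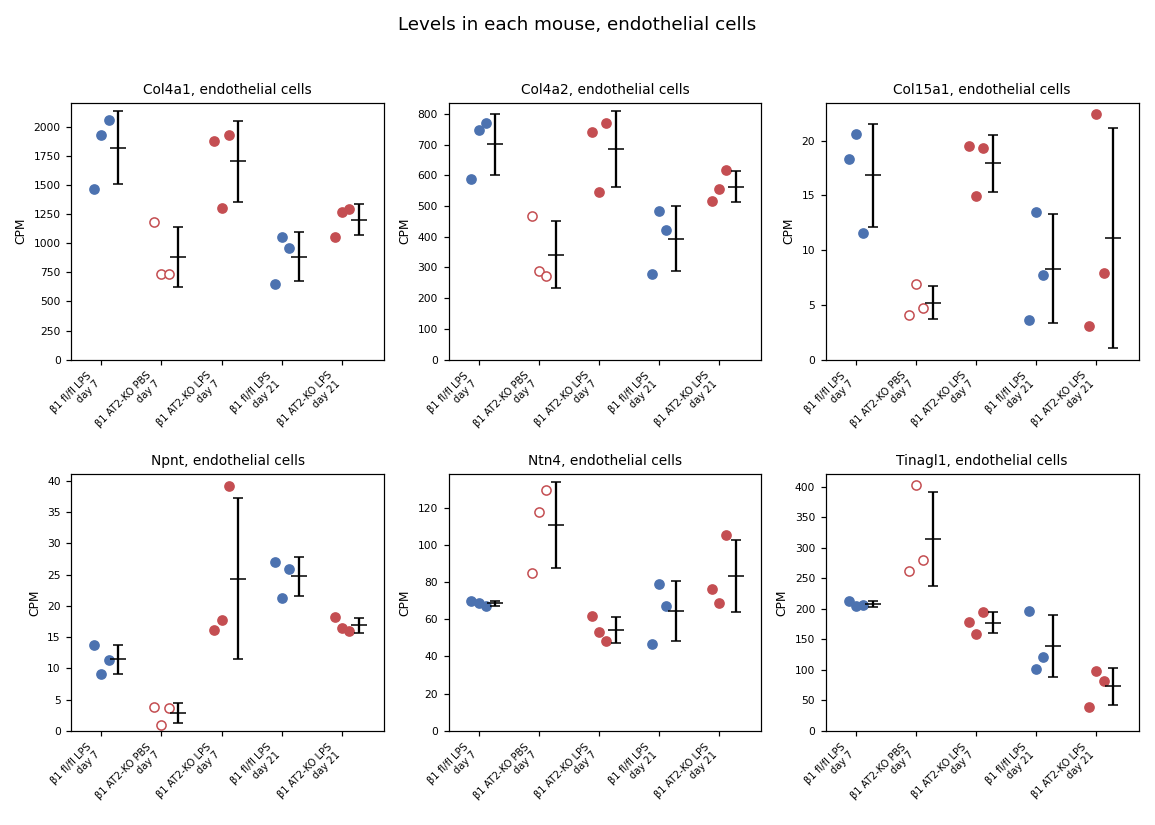
Level in each mouse (points, in CPM) of 6 genes in endothelial cells by condition, with mean and SD over 3 mice and open points for PBS. The PBS points of Col4a1 and Npnt lie below the day 7 LPS points of both genotypes, and those of Ntn4 and Tinagl1 above them.

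Genes that act on basement membranes were followed in 5 further lists, for collagen processing (16 genes), proteases and their inhibitors (11), other matrix receptors (19), dystroglycan glycosylation (10, of which 9 were in the matrices) and other basement membrane proteins (12). In endothelial cells after LPS, where 26.2% of all genes were called (14.3% higher and 11.9% lower), 5 of 10 protease and inhibitor genes tested were higher and 1 lower, with Timp1 at 2.26 ± 0.41 and Mmp2 at 1.77 ± 0.30. Of 15 collagen processing genes 3 were higher and 4 lower. The higher ones were the lysyl oxidases, which cross-link collagen, with Lox at 4.28 ± 0.61 and Loxl1 at 1.68 ± 0.40, and the lower ones were the prolyl and lysyl hydroxylases P4ha1, P4ha2, Plod2 and Plod3. Of 16 other receptors 5 were higher, among them Sdc1 at 3.35 ± 0.58, Cd44 at 0.93 ± 0.25 and Itgb1 at 0.45 ± 0.15 (adjusted p = 0.028), and 3 were lower. Between these libraries the AT2 reference genes rose 6.24 to 14.6-fold in endothelial cells. The part of free AT2 RNA in the rise of Sdc1 was not tested. Of 7 other basement membrane proteins 3 were higher (Fbln1 at 1.67 ± 0.31), and of 9 glycosylation genes none was higher and 2 were lower (Pomt2 and B4gat1). Lox, Loxl1, Mmp2 and Fbln1 were higher in mesenchymal than in endothelial cells by 6.65, 7.16, 6.37 and 7.75 on the log2 scale, and for these genes free mesenchymal RNA and a change within endothelial cells cannot be told apart. Between mesenchymal and AT2 cells, where 38.5% of all genes were called (22.3% higher and 16.2% lower), 12 of 16 collagen processing genes were higher in mesenchymal cells and none lower, and for other basement membrane proteins 9 of 10 were higher and 1 lower.

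Between genotypes few of these genes were called. In AT2 cells at day 7 they were Itgb1 itself, lower, and Dpm1, which supplies mannose for glycosylation, higher by 2.13 ± 0.45. Dpm1 was also higher at day 7 in endothelial cells (2.31 ± 0.13) and in mesenchymal cells (2.51 ± 0.39). For these day 7 differences genotype, sex and library cannot be told apart. In AT2 cells at day 21 P4ha2 was higher by 0.85 ± 0.23 (adjusted p = 0.034), Timp3, which inhibits metalloproteinases, by 0.65 ± 0.16 (adjusted p = 0.018), and Itgb1 was lower. In endothelial cells Adamts1, a protease of proteoglycans, was higher in β1 AT2-KO mice by 0.88 ± 0.13 at day 7 (adjusted p = 0.00055) and lower by 0.86 ± 0.15 on the log2 scale at day 21 (adjusted p = 0.0089), and the change between the times was itself called (−1.75 ± 0.20, adjusted p = 0.00016). The heparan sulfate proteoglycan Sdc4 was higher at day 7 by 0.56 ± 0.13 (adjusted p = 0.018) and Timp2, another inhibitor of metalloproteinases, at day 21 by 0.54 ± 0.11 (adjusted p = 0.034).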

How the data were processed

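Cells of lungs from 5 conditions were measured with the 10x 5′ kit. The authors made the deposited UMI counts with CellRanger 3.1 on mm10, per the labels, without normalization, and their free RNA correction (SoupX) and filters are not part of the files. The submitters' processing notes also name Seurat 4.1.0. The members and accompanying lists were chosen with earlier results of these data known.

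A barcode was kept if it had 700 genes or more and a mitochondrial share of its UMIs from 0.1% to 15%. Mice were separated by a hashtag at 4 or more times its background, found as the only one in 50.3% to 78.7% of cells of a library but in 11.7% to 51.1% of its mesenchymal cells, on which the mesenchymal mouse levels and tests rest, and counts were summed per mouse and class where at least 10 cells remained. Sums were tested with edgeR 4.0.16 in R 4.3.3 (TMM scaling, filterByExpr for low counts, the quasi-likelihood test and Benjamini-Hochberg adjustment over all genes at a threshold of 0.05). Comparisons of classes had the mouse as a block, since the same animal gave all classes, and a 2-fold limit. Each genotype or LPS comparison was fitted over all mice of a class. The SE of an edgeR difference was its size divided by the square root of the F value of the same test. DESeq2 1.42.0, DESeq2 size factors, no low-count filter, a looser gate, a stricter hashtag threshold, doublets removed with scores from scanpy 1.11.5 and each mouse left out were alternatives. Endothelial subsets were added after seeing the data. Where groups are said not to overlap, the share of all genes without overlap was not counted. Named genes were all members, Itgb1, the reference genes and, in each list, the 2 genes with the largest fold among those called. The hydroxylases were named after their values were seen. In simulated data with 200 genes changed 4-fold, 137 of 160 tested were recovered with 3 false calls for the day 7 AT2 comparison, and 63 of 160 with 6 for the day 21 mesenchymal one. For AT2 minus endothelial cells at day 7, 77 of 197 were recovered with 0 false calls. The simulated spread between mice was a fixed dispersion of 0.05. Changes as small as those of Sparc and Bcam between genotypes were not simulated. Of gene IDs, 99.9% matched the GENCODE annotation of GRCm38. Python 3.11.15, numpy 2.4.6, pandas 2.3.3, scipy 1.17.1 and matplotlib 3.10.9 were used.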

Additional observations from a re-analysis of the deposited data

Results flagged for a closer look

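In AT2 cells the genotype difference of Sparc was lower at day 21 than at day 7 by −0.99 on the log2 scale, which was picked out because the effects of 2 time points differed by a test of the difference itself (adjusted p = 0.022). In endothelial cells that of Bcam was higher at day 21 than at day 7 by 0.64 (adjusted p = 0.028), by the same kind of test. At day 7 the genotype differences of AT2 and endothelial cells differed by 0.98 for Sparc (adjusted p = 0.0035) and by 1.08 for Bcam (adjusted p = 0.00016). The comparison of classes took endothelial cells of all kinds together. Genotype and sex cannot be told apart at day 7. No group had 4 or more mice, so no mouse was tested for standing apart from its group.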

How the results depend on the processing

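Counts of members called moved by over 1.5 times, or away from 0, under these alternatives. For genotype at day 7 in AT2 cells (2 called) a looser gate gave 4 and a stricter hashtag threshold 0. For the change of that effect from day 7 to day 21 (1) both gave 0. For genotype at day 7 in endothelial cells (1) no filter gave 3, the stricter hashtag threshold 2, Car4-positive cells 0 and cells without Prox1 2. For LPS in endothelial cells (18) Gpihbp1-positive cells gave 11. At day 21 in endothelial cells (0) no filter and the stricter hashtag threshold gave 1 each. For the change between times in endothelial cells (1) no filter gave 2, and Car4-positive and Gpihbp1-positive cells 0. At day 21 in mesenchymal cells (0) no filter gave 2, and DESeq2, the looser gate and doublets removed 1 each. For the change between times there (0) no filter and DESeq2 gave 1. For AT2 minus endothelial cells at day 7 (2) DESeq2 and the stricter hashtag threshold gave 1. Leaving out each mouse gave 21 to 23, 27 to 29 and 22 to 25 calls for the class comparisons, 0 to 2, 0 to 0 and 0 to 2 for AT2 cells (day 7, day 21, change), 0 to 2, 16 to 20, 0 to 0 and 0 to 1 for endothelial cells (day 7, LPS, day 21, change), 0 to 0, 0 to 0 and 0 to 1 for mesenchymal cells, and 1 to 2 and 0 to 0 for AT2 minus endothelial cells. Without the mouse as a block, the class comparisons gave 17, 23 and 19 calls in place of 23, 29 and 24. No paired analysis was possible because hashtags of different conditions mark different animals. Uncalled values that changed sign were Lama4 in endothelial cells at day 7 (−0.22; 0.15 with the stricter hashtag threshold, −0.76 to 0.019 with each mouse left out), Tinagl1 at day 21 (0.034 in Car4-positive cells) and Col18a1 in the change between times (−5.44 in Gpihbp1-positive cells). The causes were not tested. Over all genes the counts called, with their lowest and highest value, were 131 (56 to 209) for AT2 cells at day 7 and 40 (33 to 95) for the change, 289 (101 to 594), 62 (7 to 194), 117 (13 to 259) and for LPS 3079 (1117 to 3230) for endothelial cells, 6 (3 to 138), 0 (0 to 69) and 1 (1 to 51) for mesenchymal cells, 141 (19 to 184) and 182 (36 to 213) for AT2 minus endothelial cells, and without the block 3150, 2746 and 2339 for classes in place of 4509, 4431 and 3827. DESeq2 size factors moved the median of all genes from 0.02 to 0.14 between mesenchymal and AT2 cells. LPS in AT2 and mesenchymal cells had no mouse sum with PBS and was not tested, and mesenchymal cells of day 21 could not be fitted with the stricter hashtag threshold.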
